A study of Mus musculus with 8 samples.

Results

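Prostaglandins are lipid mediators made from arachidonate, and the genes followed here are those that make them, break them down and receive them. The set was chosen by gene symbol and held 10 genes of the 52636 gene ids counted: Pla2g4a, Ptgs1, Ptgs2, Ptges, Ptges3, Hpgds, Tbxas1, Hpgd, Ptger2 and Ptger4. Each was found by its Ensembl id through GENCODE vM21 symbols, and all 10 were among the 13847 genes with enough counts to be tested. RNA was sequenced from primary murine microglia, the resident macrophages of the brain, taken from WT C57BL/6 mice. Per the study's methods, the pups were C57BL/6N, and the cells came from neonatal P2-P3 brains and were shaken off mixed glial cultures, so they had grown on a layer of astrocytes. All cultures, controls included, were kept in serum-containing DMEM (10% FBS) with CSF-1, a survival factor of microglia, at 10 ng/ml, and received vehicle or 5 µg/ml LPS, a bacterial cell wall component sensed by TLR4, for 24 h. There were 4 libraries in each group, labelled as biological replicates, and the question was how LPS changed the genes of prostaglandin metabolism and signalling in these cells.

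Cytosolic phospholipase A2 frees arachidonate from membrane lipids, and a cyclooxygenase turns it into the unstable intermediate PGH2. Terminal synthases then make PGE2, PGD2 or thromboxane from the same PGH2, and a dehydrogenase inactivates PGE2 once it is taken back up. Macrophages and microglia are well known to make PGE2 through the inducible cyclooxygenase after exposure to LPS, and PGE2 acts back on them through receptors that raise cAMP.

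Library totals ranged from 20071921 to 30604447 counts. Levels are given as CPM, counts relative to the library's size after TMM scaling, which sets libraries to a common size using the bulk of genes. LPS changed much of the transcriptome, with 8877 of 13847 tested genes past an adjusted p of 0.05 in edgeR's quasi-likelihood test, or 64.1%. By direction, 30.3% of tested genes were higher and 33.8% lower after LPS. The summed level of 10 microglial markers was 8123 to 11061 CPM in vehicle and 2675 to 3230 CPM in LPS libraries, with 7 of the markers lower and 1 higher. Marker sums for other cells were small beside these except for S100a8 in the neutrophil list, whose S100a9, Ly6g, Mpo and Elane had no more than 3 counts in any library. TMM factors were higher in every vehicle library than in any LPS library, and using library totals alone moved the median log2 fold change of all genes by -0.68.

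Of the 10 prostaglandin genes, 5 were higher after LPS, 4 were lower and 1 did not pass the test, beside 64.1% of all tested genes called. With an absolute log2 fold change of at least 1 as well, 4 were higher and 4 lower, beside 37.7% of all. Pla2g4a, Ptgs2, Ptges, Ptges3 and Ptger2 were higher. Ptgs1, Tbxas1, Hpgd and Ptger4 were lower, and Hpgds, the synthase of PGD2, was not called. The rise of Ptgs2 ranked 16 from the top of 13847 fitted changes, and the fall of Hpgd, the enzyme that inactivates prostaglandins, was the lowest of them. For the 9 called genes the LPS libraries lay wholly above or wholly below the vehicle libraries, which 60.2% of tested genes also did. The LPS libraries were all above in 28.7% of tested genes and all below in 31.5%.

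**Figure D1:**
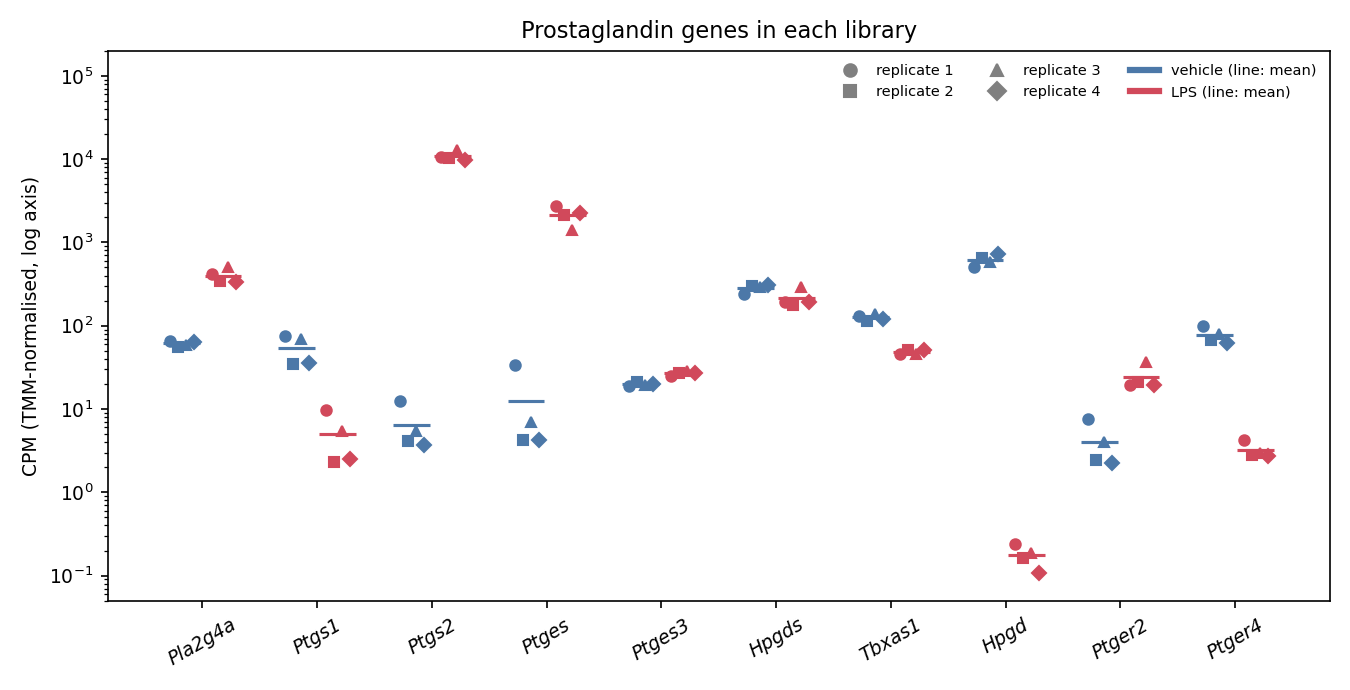
CPM after TMM scaling (log axis) of the 10 prostaglandin genes in each of 4 vehicle and 4 LPS libraries, with symbols for the replicate number and lines for the group means. Ptgs2 lay at 3.73 to 12.5 CPM in vehicle and 9737 to 12984 CPM in LPS, and Ptges at 4.22 to 34.2 and 1421 to 2767 CPM. Hpgd fell from 503 or more to below 0.24 CPM.

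The promoters of 4 genes are shown because the results turn on them: the inducible and the constitutive cyclooxygenase (Ptgs2 and Ptgs1), the inducible PGE2 synthase (Ptges) and the enzyme of breakdown (Hpgd). Each window runs from 250 bases before to 50 bases after the RefSeq start of the gene (GRCm38.p6), written 5′ to 3′ on the strand of the gene. For Ptges this start lies inside the longer gene of GENCODE. Both strands were searched for 8 short motifs, and capitals mark the matches. The motifs were NF-kB, C/EBP, the core of the cAMP response element (CRE), an E-box, AP-1, PU.1, a TATA box and a CCAAT box. They may overlap.
Ptgs2, chr1:150099781-150100080, plus strand: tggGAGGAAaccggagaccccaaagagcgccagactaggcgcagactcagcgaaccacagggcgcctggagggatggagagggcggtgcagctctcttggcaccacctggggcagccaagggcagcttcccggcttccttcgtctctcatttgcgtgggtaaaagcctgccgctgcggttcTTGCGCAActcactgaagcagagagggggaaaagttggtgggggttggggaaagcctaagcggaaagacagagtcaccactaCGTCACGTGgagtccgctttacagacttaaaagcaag
Ptgs1, chr2:36230176-36230475, plus strand: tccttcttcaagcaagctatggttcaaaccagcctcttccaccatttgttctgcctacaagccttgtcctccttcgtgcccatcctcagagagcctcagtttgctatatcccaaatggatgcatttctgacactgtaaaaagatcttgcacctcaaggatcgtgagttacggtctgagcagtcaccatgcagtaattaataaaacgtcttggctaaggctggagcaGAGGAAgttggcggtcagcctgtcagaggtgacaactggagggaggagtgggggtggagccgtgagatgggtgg
Ptges, chr2:30903248-30903547, minus strand: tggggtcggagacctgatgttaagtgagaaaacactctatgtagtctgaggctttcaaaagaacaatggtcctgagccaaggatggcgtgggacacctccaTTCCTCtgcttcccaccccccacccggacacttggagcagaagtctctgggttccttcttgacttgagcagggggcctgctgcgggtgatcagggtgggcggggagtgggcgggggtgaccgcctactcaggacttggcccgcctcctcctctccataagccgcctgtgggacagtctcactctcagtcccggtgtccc
Hpgd, chr8:56294302-56294601, plus strand: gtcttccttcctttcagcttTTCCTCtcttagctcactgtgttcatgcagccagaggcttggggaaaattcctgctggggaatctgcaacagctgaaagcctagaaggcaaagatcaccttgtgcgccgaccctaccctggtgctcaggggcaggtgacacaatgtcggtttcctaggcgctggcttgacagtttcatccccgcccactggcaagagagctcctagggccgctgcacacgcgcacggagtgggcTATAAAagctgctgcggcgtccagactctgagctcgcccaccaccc
In the Ptgs2 window, TTGCGCAA, a match to the C/EBP letters TTGCNNAA, stood 69 bases before the start. At position 14 after the start it held the CRE core TGACG read from the other strand, and this overlapped an E-box of the letters CACGTG. Of the 11 windows of these genes, those of Ptgs2, Hpgds and Ptger2 held a C/EBP match. So did 10.8% of 32851 RefSeq promoters of this length. A CRE core was held by the Ptgs2 and Ptges3 windows and by 20.8% of all promoters, and an E-box by that of Ptgs2 and by 7.15%. All 4 windows shown held PU.1 letters (GAGGAA) on one strand or the other, as did 6 of the 11 and 28.3% of all promoters. The Hpgd window also held TATAAA, the TATA box searched, which 3 of the 11 and 13.6% of all promoters held. An NF-kB match was held by the Ptges3 window and by no other of the 11 windows of these genes, and by 8.46% of all promoters. AP-1 (TGANTCA) was matched in the Tbxas1 window and in 7.81% of all. CCAAT was matched in 3 of the 11 windows, those of Pla2g4a, Ptger2 and Ptger4, and in 37.4% of all. A match is a run of letters and not a measured site, and no binding was assayed.

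Arachidonate release was represented by Pla2g4a (ENSMUSG00000056220, chr1:149829618-149961290, minus strand), the calcium-dependent cytosolic phospholipase A2. Its level was 66.2, 55.6, 58.9 and 64.3 CPM in vehicle replicates 1 to 4 and 414, 339.8, 506 and 331 CPM in LPS replicates 1 to 4. All LPS libraries were above all vehicle libraries, with the highest value in LPS replicate 3. The mean rose from 61.3 ± 4.87 to 398 ± 81 CPM (SD, n = 4), a 6.49-fold difference with a log2 fold change of 2.70 (SE 0.16, edgeR adjusted p = 8.85e-07). In RNA from whole cultures, more or fewer cells of a type and more or less RNA per cell cannot be told apart, here and for every gene below.

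The cyclooxygenases moved in opposite directions. Ptgs1 (ENSMUSG00000047250, chr2:36230426-36252272, plus strand), the constitutive enzyme, measured 74.9, 35.2, 69.1 and 35.7 CPM in vehicle and 9.63, 2.34, 5.46 and 2.49 CPM in LPS replicates 1 to 4. Replicates 1 and 3 were the higher ones in both groups, and no LPS library reached a vehicle library. Its mean fell from 53.7 ± 21.3 to 4.98 ± 3.42 CPM, 10.8-fold, with a log2 fold change of -3.44 (SE 0.48, edgeR adjusted p = 0.000165). Platelets are rich in this enzyme, and the summed level of 6 platelet and megakaryocyte markers was also higher in vehicle replicates 1 and 3 (40.9 and 66.3 CPM) than in 2 and 4 (29.2 and 24.4 CPM), and highest in LPS replicate 1 (69.6 CPM, against 10.7 to 20.8 CPM in the other LPS libraries). Of the 6 markers, 3 were tested, with 1 higher and 2 lower after LPS, and Itga2b and Gp9 had no more than 3 counts in any library. The part of platelets in the level of Ptgs1 was not tested.

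Ptgs2 (ENSMUSG00000032487, chr1:150100031-150108227, plus strand), the inducible cyclooxygenase COX-2, measured 12.5, 4.12, 5.39 and 3.73 CPM in vehicle replicates 1 to 4. It measured 10725, 10330.3, 12984 and 9737 CPM in LPS replicates 1 to 4. The groups were far apart, and vehicle replicate 1 was the highest of its group. The mean rose from 6.43 ± 4.10 to 10944 ± 1419 CPM, 1701-fold, with a log2 fold change of 10.73 (SE 0.53, edgeR adjusted p = 3.61e-07). Reads of Ptgs2 made up 0.797% to 0.910% of all counts in the LPS libraries, which placed it 10th in mean abundance among all genes there.

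Within each library the ratio of Ptgs2 to Ptgs1 does not depend on scaling between libraries. Per kilobase of exon, the mean log2 ratio was -3.39 ± 0.45 in vehicle and 11.10 ± 0.90 in LPS libraries (SD, n = 4). So Ptgs1 transcripts outnumbered Ptgs2 transcripts in every vehicle library, and the order was the reverse in every LPS library. The difference was 14.48 on the log2 scale (two-sided exact permutation test, p = 0.0286, which is the smallest that 70 divisions allow, and 0.0286 after adjustment over 3 ratios). Ptgs2 was higher and Ptgs1 lower without overlap, so their ratio had to separate the groups. This p-value therefore adds nothing to the results of the single genes. With the replicate number as a block, exact sign flips of 4 pairs gave p = 0.125, the smallest they can give, and all 4 pairs showed the same direction.

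Pla2g4a and Ptgs2 are neighbours on chromosome 1, 138740 bases apart and read in opposite directions, away from each other. Between them lay Ptgs2os, a noncoding RNA on the minus strand whose start lies 67 bases from that of Ptgs2, so that the pair is read in opposite directions. Ptgs2os had 0 counts in all 4 vehicle libraries and 8.38, 8.93, 10.4 and 6.28 CPM in LPS replicates 1 to 4, at least 82.8-fold higher when each vehicle library is set at a floor of 3 counts. Ptgs2os2, a noncoding RNA 50815 bases beyond Ptgs2, had 12 counts over the vehicle and 4283 over the LPS libraries, a ratio of 558 (95% counting interval 319 to 1080.0). The other 2 annotated genes between Pla2g4a and Ptgs2, Gm19136 and Gm44329, had no more than 6 counts in any library. Intervals and floors from counts cover counting error only.

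The terminal synthases compete for PGH2, and among them Ptges changed most. Ptges (ENSMUSG00000050737, chr2:30889471-30929863, minus strand), the inducible microsomal PGE2 synthase, measured 34.2, 4.22, 6.91 and 4.23 CPM in vehicle and 2767, 2163, 1421 and 2259 CPM in LPS replicates 1 to 4. Vehicle replicate 1 was well above the other vehicle libraries but far below every LPS library. The mean rose from 12.4 ± 14.6 to 2152 ± 555 CPM, 174-fold, with a log2 fold change of 7.44 (SE 0.83, edgeR adjusted p = 4.07e-05). Without vehicle replicate 1 the log2 fold change was 8.75.

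Ptges3 (ENSMUSG00000071072, chr10:128058954-128077272, plus strand), the cytosolic PGE2 synthase also known as the Hsp90 co-chaperone p23, had a small rise. It ranged from 19.1 to 20.9 CPM in vehicle and from 25.2 to 28.6 CPM in LPS libraries. The log2 fold change was 0.44 (SE 0.09, edgeR adjusted p = 0.00203), but with library totals alone it was -0.24 (adjusted p = 0.0468), against a median of -0.79 over all genes under that scaling. Of its 50-base windows 19.6% also occur in Ptges3-ps or Gm11893, so counts of uniquely aligned reads miss part of the gene.

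Hpgds (ENSMUSG00000029919, chr6:65117293-65144908, minus strand), the hematopoietic PGD2 synthase, measured 239.8, 298, 296 and 306 CPM in vehicle and 193, 176, 289 and 192 CPM in LPS replicates 1 to 4. LPS replicate 3 lay within the vehicle range, whereas the other 3 LPS libraries were below all vehicle libraries. The log2 fold change of -0.42 (SE 0.17) did not pass the test (edgeR adjusted p = 0.0515). With the replicate number as a block it was -0.44 and passed (adjusted p = 0.0288). It also passed without LPS replicate 3 (-0.60, adjusted p = 0.00145) and without vehicle replicate 1 (-0.47, adjusted p = 0.0339). Mast cells are another source of this enzyme. The summed level of 7 mast cell markers was 1.93 to 5.11 CPM in vehicle and 33.2 to 45.4 CPM in LPS libraries, with 1 of 2 tested markers higher, but Cpa3, Fcer1a, Tpsb2, Cma1 and Ms4a2 had no more than 3 counts in any library.

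Tbxas1 (ENSMUSG00000029925, chr6:38875404-39084585, plus strand), thromboxane A synthase, measured 129.5, 115, 137 and 122 CPM in vehicle and 45.4, 51.0, 45.2 and 51.1 CPM in LPS replicates 1 to 4. The groups were tight and did not overlap. The mean fell from 126 ± 9.31 to 48.2 ± 3.29 CPM, 2.61-fold, with a log2 fold change of -1.38 (SE 0.10, edgeR adjusted p = 2.27e-06).

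Among 8 terminal synthases compared per kilobase of exon, Ptges made up 3.53 ± 4.05% of the summed level in vehicle and 89.8 ± 3.83% in LPS libraries. The share of Hpgds went from 51.3 ± 7.55% to 5.93 ± 3.06%, and that of Tbxas1 from 15.9 ± 0.508% to 0.909 ± 0.205%. So transcripts for PGD2 synthesis were the most abundant in every vehicle library, and those of Ptges were the most abundant in every LPS library. These shares depend on the length used. With the longest protein-coding transcript in place of all exons, Ptges went from 1.90% to 83.8%, Hpgds from 46.2% to 9.39% and Tbxas1 from 35.6% to 3.58%. The mean log2 ratio of Ptges to Hpgds per kilobase was -4.42 ± 1.59 in vehicle and 4.04 ± 0.70 in LPS libraries, a difference of 8.46 (exact permutation p = 0.0286, two-sided, 0.0286 after adjustment over the 3 ratios). Exact sign flips of the 4 pairs gave p = 0.125, again the smallest possible.

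**Figure D2:**
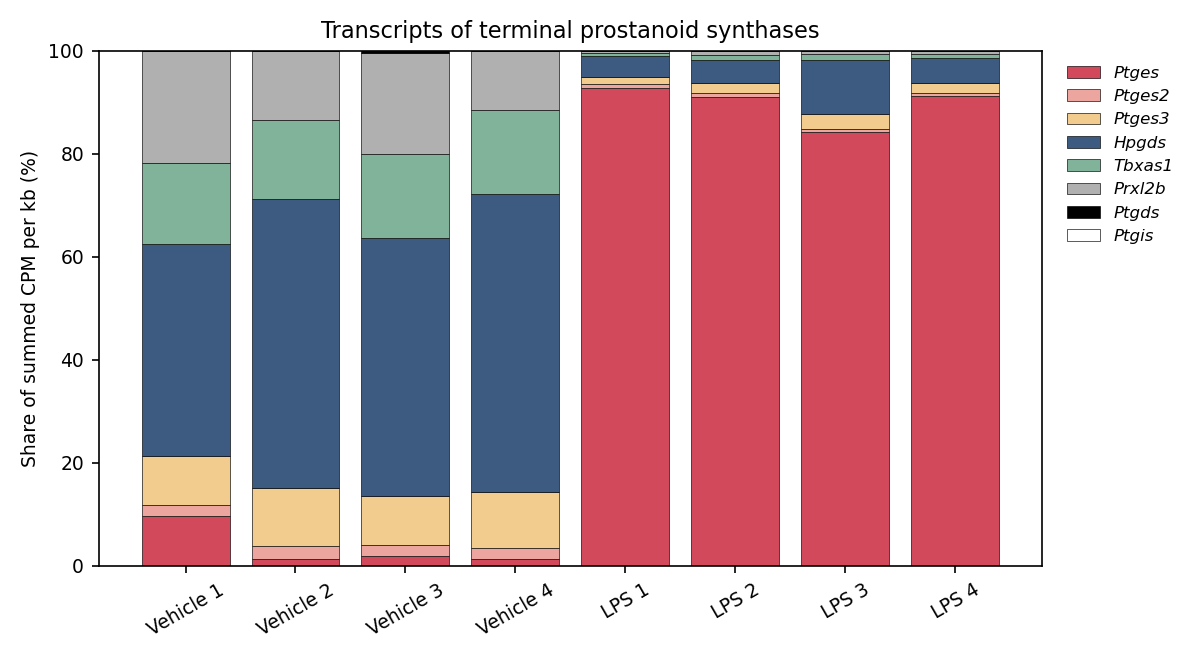
Share (%) of each of 8 terminal prostanoid synthases in their summed CPM per kilobase of exon, one bar for each library. Ptges took 1.30% to 9.59% of the bar in vehicle and 84.2% to 92.8% in LPS libraries, and its share in LPS replicate 3 was the lowest of the LPS group.

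Breakdown of prostaglandins was represented by Hpgd (ENSMUSG00000031613, chr8:56294585-56321043, plus strand), the 15-hydroxyprostaglandin dehydrogenase that inactivates PGE2. It had 14379, 18826, 18465 and 20537 counts in vehicle and 4, 3, 4 and 2 counts in LPS replicates 1 to 4. The vehicle mean was 617 ± 96.0 CPM, which placed Hpgd 118th in abundance among all genes, and the LPS mean was 0.174 ± 0.0544 CPM. The transcript was thus among the common ones in vehicle and close to undetected in each of the LPS libraries. With 72207 counts against 13 over the groups, vehicle exceeded LPS by a ratio of 3555 (95% counting interval 2079 to 6678). The fitted log2 fold change of -11.75 (SE 0.25, edgeR adjusted p = 1.51e-08) rests on these few LPS counts. DESeq2 gave -11.74, and leaving out each library in turn gave -11.91 to -11.58.

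The cAMP-raising receptors of PGE2 moved in opposite directions. Ptger2 (ENSMUSG00000037759, chr14:44988195-45003820, plus strand), which encodes EP2, measured 7.49, 2.42, 4.00 and 2.24 CPM in vehicle and 19.3, 21.2, 36.8 and 19.5 CPM in LPS replicates 1 to 4. LPS replicate 3 stood above the rest of its group, and the groups did not overlap. The mean rose from 4.04 ± 2.43 to 24.2 ± 8.47 CPM, with a log2 fold change of 2.58 (SE 0.40, edgeR adjusted p = 0.000333).

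Ptger4 (ENSMUSG00000039942, chr15:5206661-5244187, minus strand), which encodes EP4, measured 98.0, 67.7, 79.7 and 62.5 CPM in vehicle and 4.19, 2.83, 2.98 and 2.76 CPM in LPS replicates 1 to 4. Every LPS library was far below every vehicle library. The mean fell from 77.0 ± 15.8 to 3.19 ± 0.672 CPM, 24.1-fold, with a log2 fold change of -4.60 (SE 0.20, edgeR adjusted p = 1.94e-07). Of its exonic bases 16.5% overlap Ttc33 or Gm15937 on the other strand, and whether counting used strand is not given in the sources used here.

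Per kilobase, the mean log2 ratio of Ptger2 to Ptger4 was -4.05 ± 0.52 in vehicle and 3.23 ± 0.58 in LPS libraries. EP4 transcripts were the more abundant in all 4 vehicle libraries and EP2 transcripts in all 4 LPS libraries. The difference of 7.28 had an exact permutation p of 0.0286 (two-sided, 0.0286 after adjustment over the 3 ratios) and, by exact sign flips of the pairs, p = 0.125. Here too the separation followed from the single genes, since Ptger2 was higher and Ptger4 lower without overlap.

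**Figure D3:**
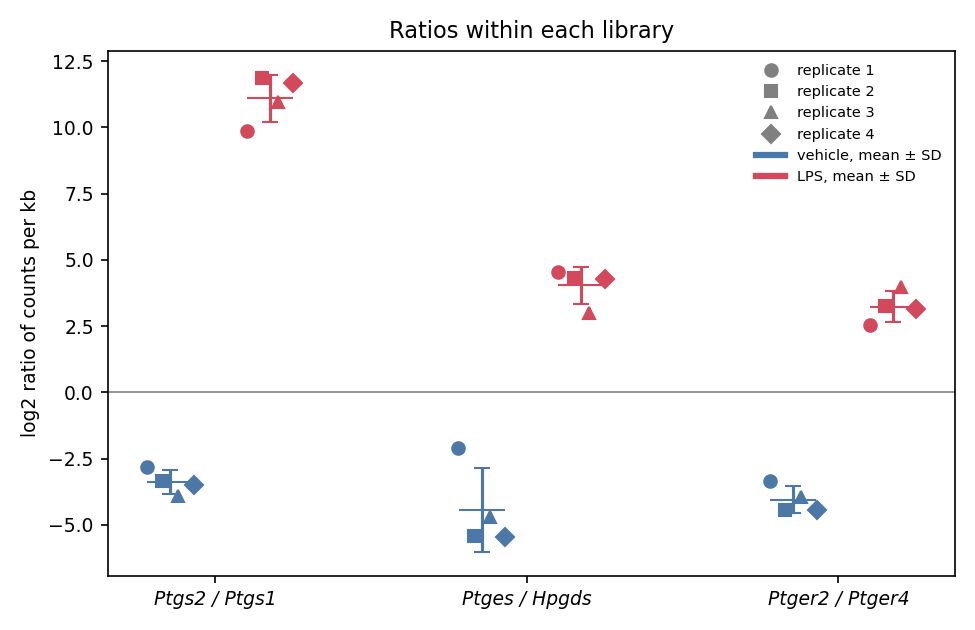
Log2 ratio of counts per kilobase of exon within each library for Ptgs2 over Ptgs1, Ptges over Hpgds and Ptger2 over Ptger4, with symbols for the replicate number and bars for mean ± SD of 4 libraries. All vehicle values lie below 0 and all LPS values above 0 for the 3 ratios.

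**Figure D4:**
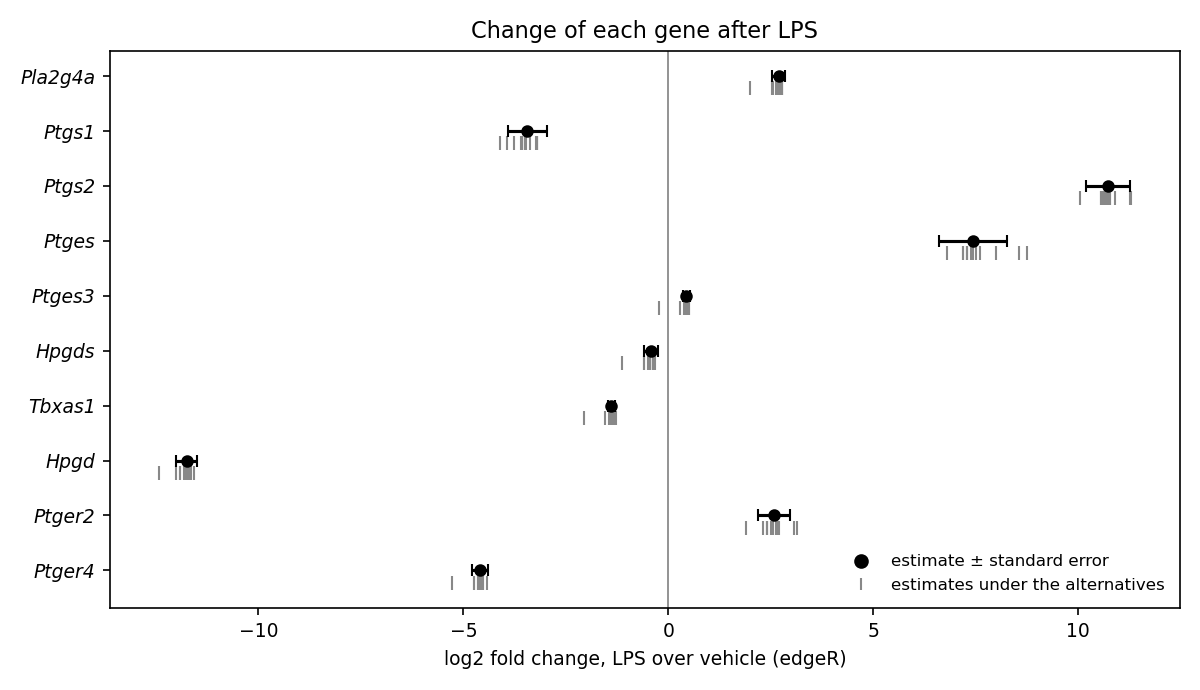
Log2 fold change (LPS over vehicle) of the 10 prostaglandin genes with its standard error (points and bars), and the estimates under the other settings tried (ticks). The ticks of Ptges3 fall on both sides of 0, at -0.24 with library totals alone, and those of the other 9 genes stay on the side of their point.

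Levels of different genes were compared as CPM per kilobase of exon, as a description. In vehicle the order was Hpgd (367 ± 57.1), Hpgds (44.3 ± 4.72), Tbxas1 (13.8 ± 1.02), Ptgs1 (13.8 ± 5.47), Ptger4 (11.6 ± 2.37), Pla2g4a (9.59 ± 0.762), Ptges3 (8.90 ± 0.363), Ptges (3.15 ± 3.71), Ptgs2 (1.40 ± 0.896) and Ptger2 (0.777 ± 0.469). Hpgd and Hpgds stood clear of the genes below them, whereas from Tbxas1 down each gene's library range overlapped that of the next. In LPS libraries the order was Ptgs2 (2390 ± 309.9), Ptges (548 ± 141), Pla2g4a (62.2 ± 12.7), Hpgds (33.1 ± 8.06), Ptges3 (12.1 ± 0.626), Tbxas1 (5.30 ± 0.361), Ptger2 (4.66 ± 1.63), Ptgs1 (1.28 ± 0.880), Ptger4 (0.480 ± 0.101) and Hpgd (0.104 ± 0.0323). There, library ranges overlapped between Tbxas1 and Ptger2 and between Ptgs1 and Ptger4, and between no other neighbours. The order depends in part on the length used. With the longest protein-coding transcript, the vehicle levels of Hpgds (81.9), Tbxas1 (63.2), Ptger4 (23.2) and Pla2g4a (21.5) were over 1.5 times higher, and Ptger4 and Pla2g4a then stood above Ptgs1 (18.7). In LPS libraries Pla2g4a (139), Hpgds (61.1), Tbxas1 (24.2) and Ptger4 (0.964) moved as much, and Tbxas1 then stood above Ptges3 (13.4).

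The other genes of the pathway were taken as 6 lists holding 88 genes, of which 62 were tested. In these, 19 genes were higher after LPS, 30 were lower and 13 did not pass, or 79% called beside 64.1% of all tested genes. The median log2 fold change was -0.31, against -0.11 over all tested genes. With library totals alone the split was 9 higher and 36 lower. The lists were chosen with earlier results of these data known, so the counts are a description.

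The list for arachidonate supply held 27 genes, with Pla2g7 included as a phospholipase A2 by family. Of the 27, 13 were tested, with 5 higher, 7 lower and a median log2 fold change of -0.74, while 11 had no more than 3 counts in any library. Pla2g5, a secreted phospholipase A2, went from 7 counts over the vehicle libraries to 957 over the LPS libraries, a ratio of 214 (95% counting interval 103 to 533). Pla2g4c (log2 fold change 1.97), Pla2g6 (1.16) and Pla2g7 (1.69), 3 further phospholipases A2, were also higher. Pla2g7, which cleaves platelet-activating factor, overlapped between the groups, with vehicle replicate 1 at 295 CPM and LPS replicates 2 to 4 at 228 to 376 CPM, and it did not pass with upper quartile scaling (adjusted p = 0.0529).

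The enzymes that make and cleave the endocannabinoid 2-arachidonoylglycerol, another source of arachidonate, fell. Daglb had a log2 fold change of -3.35 and Dagla of -1.29, and both make 2-arachidonoylglycerol. Its hydrolases Mgll (-1.93), Abhd12 (-1.95) and Abhd6 (-1.0) were lower as well. Pla2g15, the lysosomal phospholipase A2, fell from 275 ± 12.8 to 42.6 ± 6.48 CPM (log2 fold change -2.69).

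All 8 genes that return arachidonate to lipids were tested, with 5 higher, 2 lower and a median log2 fold change of 0.92. Acsl5 (2.04), Acsl4 (1.35) and Acsl1 (1.11), which join long fatty acids to coenzyme A, were higher on the log2 scale, and Acsl3 (-1.82) of the same family was lower. Acsl4, which prefers arachidonate, rose from 154 ± 11.1 to 392 ± 71.0 CPM. Lpcat2, a lysophospholipid acyltransferase, was higher (1.14). Acsl1, Lpcat2, Pla2g6 and Pla2g7 kept a positive log2 fold change but did not pass with library totals alone.

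Of the 11 other prostanoid synthases, 7 were tested, with 1 higher, 4 lower and a median log2 fold change of -0.77. Ptges2, a membrane-associated PGE2 synthase, was higher (9.91 ± 0.613 to 20.2 ± 5.54 CPM, log2 fold change 1.03), but did not pass with library totals alone (0.37, adjusted p = 0.164). Prxl2b, which makes prostaglandin F2α, had a log2 fold change of -2.04, and Cbr1, a carbonyl reductase that turns PGE2 into prostaglandin F2α, one of -1.03. Of the aldo-keto reductases Akr1b3 (-0.77) and Akr1b10 (-0.83) were lower, and Akr1b8 (0.35, adjusted p = 0.597) was not called. Ptges3l, a gene similar to Ptges3, was not called either (0.00, adjusted p = 0.996). The synthase of PGD2 in glia and meninges, Ptgds, had at most 21 counts in a library and the prostacyclin synthase Ptgis at most 1, and neither was tested, nor were Akr1c18 and Gstm2.

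Of 11 other genes of breakdown and transport, 10 were tested, with 3 higher, 2 lower and a median log2 fold change of 0.24. Slco3a1, a membrane transporter whose substrates include prostaglandins, rose from 2.07, 1.73, 4.19 and 0.746 CPM in vehicle to 361, 366, 490 and 401 CPM in LPS replicates 1 to 4. The groups were far apart, and the log2 fold change was 7.52 (SE 0.47, edgeR adjusted p = 1.17e-06). Abcc1, an exporter of glutathione conjugates such as leukotriene C4, was higher (1.81), and Cbr3, a carbonyl reductase, was lower (-2.38). The prostaglandin reductases Ptgr1 and Ptgr3 were not called, while Ptgr2 was lower by a small amount (-0.41, adjusted p = 0.0390) and not in DESeq2 (adjusted p = 0.0871).

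The list of other prostanoid receptors held 8 genes, among them Ptgfrn, whose product binds such a receptor. Of these, 3 were tested, with 1 higher and 1 lower (Ptgfrn). The other 5 had no more than 3 counts in any library: Ptger3, Ptgdr, Ptgdr2, Ptgfr and Tbxa2r. The receptors of PGD2 and thromboxane were thus not detectable at this depth. Ptgir, the prostacyclin receptor, measured 4.41, 1.11, 2.44 and 0.888 CPM in vehicle and 45.9, 15.7, 16.2 and 16.4 CPM in LPS replicates 1 to 4, with a log2 fold change of 3.41 (SE 0.56, edgeR adjusted p = 0.000507). Ptgfrn, a membrane protein that binds the prostaglandin F receptor, was lower (-4.40).

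EP2 and EP4 signal through cAMP, and of 23 genes in that list 21 were tested, with 4 higher, 14 lower and a median log2 fold change of -0.69. The adenylyl cyclases, which make cAMP, were lower: Adcy3 fell from 50.6 ± 7.38 to 2.63 ± 0.439 CPM (log2 fold change -4.26), and Adcy9 (-2.15), Adcy6 (-2.40) and Adcy7 (-0.97) also fell. The stimulatory G protein gene Gnas (-0.69) and the kinase subunits Prkacb (-1.51) and Prkaca (-0.47) were lower. Among the phosphodiesterases that degrade cAMP, Pde4b rose from 34.9 ± 9.94 to 473 ± 5.84 CPM (3.76), whereas Pde4a (-1.30), Pde4d (-1.60) and Pde3b (-1.87) fell. Crem, a cAMP-responsive transcription factor, was higher (1.25). Crtc2 (0.59, edgeR adjusted p = 0.00148) was higher too, as was Arrb2 (0.61, edgeR adjusted p = 0.00536), which encodes a β-arrestin. With library totals alone they were at -0.08 and -0.05 and did not pass. Arrb1, which encodes another β-arrestin, did not pass (-0.52, adjusted p = 0.115), but did with the replicate number as a block (-0.60, adjusted p = 0.0123).

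**Figure D5:**
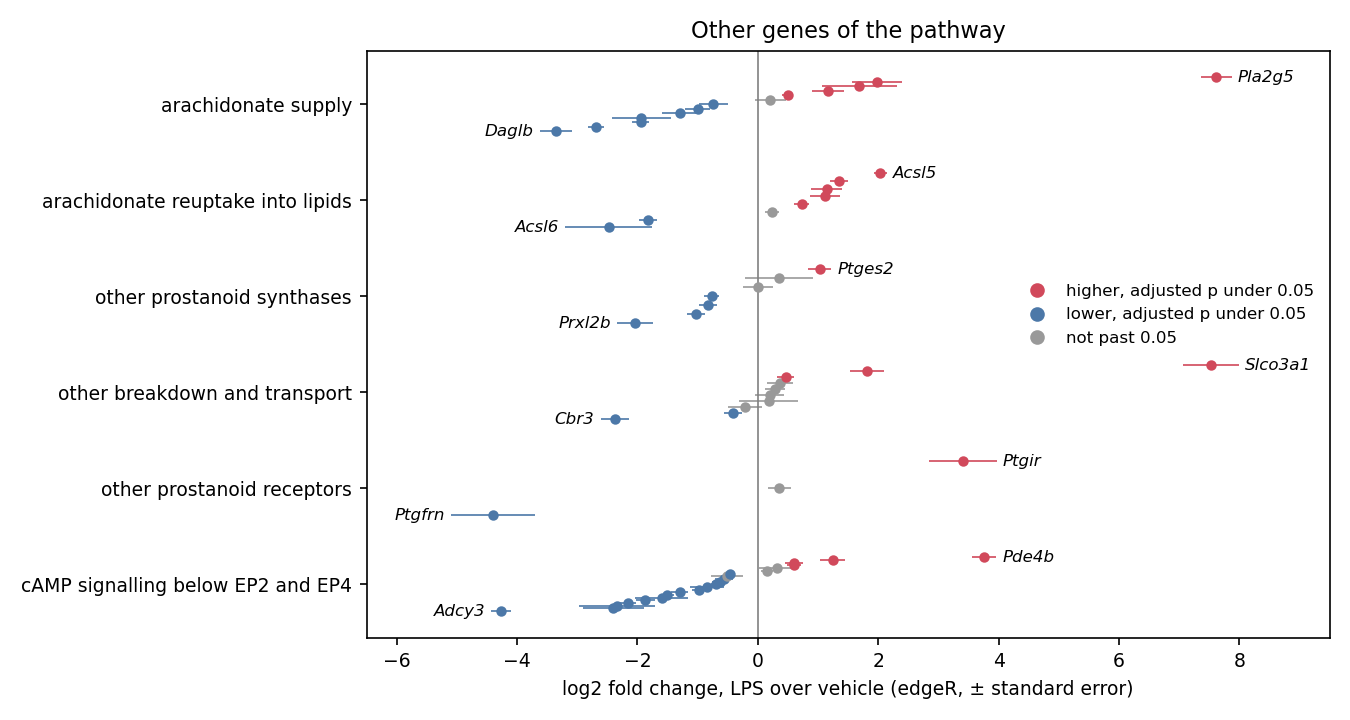
Log2 fold change (LPS over vehicle, with standard error) of the 62 tested genes of 6 pathway lists, one point for each gene, coloured by the edgeR call at an adjusted p of 0.05. Pla2g5 and Slco3a1 lie above 7, and Ptgfrn and Adcy3 below -4.

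Several of these genes are also expressed by other cells of the mixed glial cultures from which the microglia were shaken off. The paper reports its primary microglial cultures as nearly pure and as keeping a microglial pattern of gene expression. Of 8 astrocyte markers, 7 were tested, with 1 higher and 3 lower after LPS. The summed level of all 8 was 20 to 46.9 CPM in vehicle and 41.0 to 123 CPM in LPS libraries, highest in LPS replicate 1. Of 8 oligodendrocyte lineage markers it was 92.9 to 146 CPM in vehicle and 17.6 to 23.5 CPM in LPS libraries, and 4 of 6 tested markers were lower. Of 6 endothelial markers it was 31.1 to 73.5 CPM in vehicle and 163 to 254 CPM in LPS libraries. All 3 tested endothelial markers were higher, but Cldn5, Tek and Esam had no more than 3 counts in any library. Of 6 fibroblast or meningeal markers it was 0.497 to 4.31 CPM in vehicle and 5.30 to 21.4 CPM in LPS libraries, highest in LPS replicate 3. Of these markers, 2 were tested and 1 was higher. Within the LPS group, Ptgs2, Ptger2, Pla2g4a, Ptges3 and Hpgds were also highest in replicate 3, whereas Ptges and Tbxas1 were lowest there. The part of these cells in the changes above was not tested.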

How the data were processed

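RNA of 8 microglial cultures (4 vehicle, 4 LPS, grouped by GEO's labels) was measured. The authors deposited raw counts per Ensembl gene: single-end 50-base reads were filtered, aligned to GRCm38 with GSNAP and counted with HTSeqGenie, keeping uniquely aligned reads. The strand setting and the annotation release are not given in the sources used here. Kit and sequencer differ between the sources: TruSeq Stranded mRNA and NovaSeq in the labels, TruSeq RNA v2 and HiSeq in the methods. Ids without a GENCODE vM21 symbol held 0.00512% of counts. Nothing says that replicates came from separate animals, so p-values measure the spread between these cultures.

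Counts were tested with edgeR 4.0.16 (TMM, low-count filter of filterByExpr at its defaults of 10 per library and 15 in total, two-sided quasi-likelihood test, Benjamini-Hochberg over all 13847 genes) in R 4.3.3. The fit was tested on simulated data. CPM used TMM-scaled library sizes, and SD is over 4 libraries. Ratios within a library used raw counts plus 0.5 and a two-sided exact permutation test. Tables were made in Python 3.11.15 with pandas 2.3.3, numpy 2.4.6 and scipy 1.17.1, and figures with matplotlib 3.10.9. Lengths, overlaps and shared 50-base windows came from GENCODE vM21, and promoters from RefSeq. All 10 genes matched a promoter entry, and Pla2g4a had 2.

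The prostaglandin genes and all lists were chosen with earlier results of these data known. Named were the 10 genes, and, of the wider lists, every synthase, every receptor except Ptger1, which is not reported here, and each gene with an adjusted p under 0.05, an absolute log2 fold change of at least 1 and a mean log2 CPM of at least 0. Of the marker lists, counts, sums and undetected genes were given. The 3 genes nearest to Ptgs2 and to Ptgs1 were named too. Ptgs2os, Ptgs2os2, Gm19136 and Gm44329, Adcy7, Prkaca, Gnas, Arrb1, Arrb2, Crtc2 and the Ptgr genes were added after their values were seen.

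The deviations of same-numbered vehicle and LPS libraries from their group means had Pearson correlations of 0.373, 0.196, 0.171 and 0.108 (numbers 1 to 4, 8010 genes). All exceed 0.1, so the numbers were taken as pairs in the replicate block and the sign flips. The reported fit and the permutation tests were unpaired. The labels do not say what a number shares, and libraries 2 and 4 correlated as much when exchanged (0.146 and 0.137). The alternatives were DESeq2 1.42.0 (Wald test), upper quartile scaling, library totals alone, no filter, at least 10 counts in every library, the replicate block, an adjusted p of 0.01, an absolute log2 fold change of at least 1, a pseudocount of 5, and leaving out each library. Leaving out both libraries numbered 1 and the length of the longest protein-coding transcript were added after seeing the data.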

Additional observations from a re-analysis of the deposited data

Results flagged for a closer look

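Among 26 groups of 4 libraries examined, 5 held a library far from the other 3, by Dixon's test of the gap to the nearest library over the group's range. Chance gives about 1 in 20. Vehicle replicate 1 stood high for Ptges (34.2 CPM, gap 0.910 of the range) and low for Hpgds (239.8 CPM, gap 0.841 of the range). LPS replicate 3 stood high for Hpgds (289 CPM, gap 0.850 of the range) and for Ptger2 (36.8 CPM, gap 0.888 of the range). LPS replicate 1 stood high for Ptger4 (4.19 CPM, gap 0.842 of the range). Of these libraries, vehicle replicate 1 and LPS replicate 3 each decided whether Hpgds passed the test.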

How the results depend on the processing

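Of the 10 prostaglandin genes, 9 to 10 were called and 47 to 50 of the wider genes when each library was left out in turn, beside 8031 to 9314 of all genes. With an absolute log2 fold change of at least 1, 5222 of all genes were called. DESeq2, run without edgeR's low-count filter, called 9747 of 25405 genes, and 9 of the 10 prostaglandin genes. The direction of Ptges3 turned with library totals alone (-0.24), by which the median of all genes moved by -0.68. With upper quartile scaling that median moved by -0.16, and higher genes made up 39.6% of calls, 19.0% with library totals alone and 47.2% in the reported fit. Hpgds passed with upper quartile scaling (-0.59), library totals alone (-1.12) and at least 10 counts in every library (-0.48), under which Hpgd could not be tested.

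The replicate block changed the calls of Hpgds and Arrb1 and of no other gene of the pathway. Blocked, the log2 ratio differences were 14.48 (Ptgs2 to Ptgs1), 8.46 (Ptges to Hpgds) and 7.28 (Ptger2 to Ptger4), each at p = 0.125, the smallest that exact sign flips of 4 pairs allow. Without both libraries numbered 1 they were 15.08, 9.06 and 7.74, each at p = 0.1, the smallest exact permutation p for 3 against 3. Leaving out each library gave 14.23 to 14.89, 8.12 to 9.24 and 7.03 to 7.51. Depth limits Hpgd after LPS and the receptors with no more than 3 counts, and RNA levels say nothing of the lipids themselves.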

Other observations

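The tested genes whose profile over the 8 libraries lay nearest to that of Ptgs2, by root mean square distance of log2 CPM relative to the vehicle mean among 11090 genes, were Upp1 (distance 0.258), Lcn2 (0.337) and S100a8 (0.566). Upp1, a uridine phosphorylase, measured 0.103 CPM on average in vehicle and 333 CPM in LPS libraries, and Lcn2, an iron-siderophore binding protein, 5.08 and 6119 CPM. The nearest to Ptgs1 were Ltbp3 (0.358), which binds latent TGF-β, Vmac (0.451) and Zfp395 (0.499). Ltbp3 averaged 9.47 CPM in vehicle and 0.932 CPM in LPS libraries. These distances are a description over 8 libraries that share the contrast.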
